A study of Homo sapiens with 3 samples.

Results

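The serpins are a family of proteins with a common fold, most of which trap and inactivate a protease by offering it an exposed loop as bait. The family was taken as the gene symbols made of SERPIN, a clade letter from A to I and a number, which gave 35 genes of the 25270 symbols in the files, and 34 of them are described. Clades A, C, D, F and G hold mainly proteins that the liver secretes into plasma and count 16 genes here. Of clades B, E and H 16 genes are described, and clade I the other 2. Clade B proteins act mostly inside cells, clade E proteins are secreted, and SERPINH1 stays in the endoplasmic reticulum, so the second group is not an intracellular one as a whole.

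Hepatocytes make most of the plasma serpins, which restrain blood clotting, fibrinolysis, complement and the proteases of white blood cells. Some members are not inhibitors at all: SERPINA6 and SERPINA7 carry hormones, and SERPINH1 is a chaperone of collagen. PAI-2, the product of SERPINB2, inhibits the urokinase and tissue plasminogen activators.

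RNA-seq was performed on 3 cultures that the authors describe as the human hepatocellular carcinoma line HepG2, all grown in the same serum-containing medium. Parental HepG2 cells were untreated. HepG2/metR cells were survivors of more than 5 months of exposure to metformin, an inhibitor of respiratory complex I, a single selected population. Whether metformin was still in the medium at harvest is not given in the sources used here. Oxamate-treated HepG2/metR cells received oxamate, which blocks lactate dehydrogenase, at 40 mM for 24 h. Each condition has a single library, so no difference below has a replicate check and no p-value is given. A difference between conditions cannot be told apart from a difference between cultures or library preparations. Each value is a log2(FPKM + 1), where FPKM is a fragment count divided by transcript length and library size. Levels are given as FPKM after back-transformation, and changes as differences of the deposited values, a scale that understates the change of low genes.

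The 3 libraries summed to between 473773 and 562382 FPKM and listed 11356 to 11649 genes at 1 FPKM or more. The number of reads is unknown. Relative depth was estimated from the commonest ratio to the parental value among genes above 0 and under 0.15 FPKM in both libraries. The estimates were 1.21 for the HepG2/metR and 1.24 for the oxamate-treated library, if such genes mostly held equal fragment counts. The label of a liver line was checked with 18 hepatocyte markers. In parental cells all 18 were at 1 FPKM or more and their levels summed to 33855 FPKM. In HepG2/metR cells 1 of the 18 was, FGB at 1.30 FPKM, and the sum was 3.76 FPKM. With oxamate the sum was 5.43 FPKM. The markers thus bore out the label of a liver line in the parental library but not in either HepG2/metR library. The identity of the HepG2/metR cells was not tested. The largest changes were those of APOA2, ALB and APOA1, which encode plasma proteins made by hepatocytes, at -13.05, -12.36 and -11.22. HNF4A, which encodes a factor that defines the hepatocyte, was listed at 0.0156 FPKM in HepG2/metR cells. FGB and HNF4A were named after their values were seen. These markers moved with the plasma serpins below, and their part in those changes was not tested.

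Before the levels, the sequences in front of some of these genes are shown as a description. A link between their letters and the changes was not tested. Promoter windows were taken from RefSeq (GRCh38.p14), in which 27 of the 34 members had 41 transcription starts. The other 7 were SERPINA2, SERPINB10, SERPINB11, SERPINC1, SERPINF1, SERPINF2 and SERPING1. The 250 bases before each start were searched on both strands for 2 motifs that were picked after the levels were known. They were TGANTCA, the site of AP-1, and TATAAA, the TATA box. Among the starts of the members 0 matches of one motif overlapped the other. All stretches below are the 120 bases just before a start, 5′ to 3′ on the gene's strand. Such letters are a description and do not show that a factor binds there.

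The plasma serpins had few CG steps, the sites of DNA methylation, before their starts. The highest of them in parental cells, SERPINA1, and the hormone carrier SERPINA6 of the same array are shown with each CG in capitals. They lie at chr14:94388603-94388722 (minus strand, the second of 2 starts) and chr14:94323337-94323456 (minus strand).
SERPINA1: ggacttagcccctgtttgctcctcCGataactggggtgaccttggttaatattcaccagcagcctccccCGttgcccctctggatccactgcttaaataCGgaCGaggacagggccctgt
SERPINA6: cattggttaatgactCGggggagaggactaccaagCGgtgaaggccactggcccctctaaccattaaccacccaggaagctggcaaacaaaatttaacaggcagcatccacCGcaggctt

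The stretches held 4 CG steps in SERPINA1 and 3 in SERPINA6. The AP-1 letters lay before 0 of the 11 plasma serpins with a start and before 7 of the 14 genes of clades B, E and H with one, against 8.06% of all genes. In the chromosome 18 array of clade B genes, 3 of 3 genes at 1 FPKM or more in HepG2/metR cells had a match, and so had 3 of the 5 with a start that were under 1 FPKM there. The letters alone thus did not separate the expressed from the unexpressed genes of that array. The windows of the 3 expressed genes are shown with TGANTCA in capitals and lie at chr18:63777661-63777780 (the third of 3 starts), chr18:63887585-63887704 and chr18:63969961-63970080, all on the plus strand, for SERPINB7, SERPINB2 and SERPINB8.
SERPINB7: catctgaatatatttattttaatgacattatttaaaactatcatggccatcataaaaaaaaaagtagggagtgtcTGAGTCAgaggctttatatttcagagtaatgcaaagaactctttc
SERPINB2: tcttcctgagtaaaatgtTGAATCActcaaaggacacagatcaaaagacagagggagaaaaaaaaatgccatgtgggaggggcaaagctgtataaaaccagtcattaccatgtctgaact
SERPINB8: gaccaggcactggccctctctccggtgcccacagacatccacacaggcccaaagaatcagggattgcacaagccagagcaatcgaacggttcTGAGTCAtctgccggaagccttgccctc

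The match in the stretch shown began 45 bases before the start in SERPINB7, 102 in SERPINB2 and 28 in SERPINB8. At the second start of SERPINB7, not shown, a match began 39 bases before it, and the first start of that gene had none. The letters TATAAA lay on either strand within the 250 bases of all 3 genes, against 13.0% of all genes. They also lay before 1 of the 5 genes of the array with a start and under 1 FPKM in HepG2/metR cells. Of the 3 starts of SERPINB7 only the 1 shown had a match, and in the stretch shown it lies on the opposite strand. In SERPINB8 no match lay in the 120 bases shown. In SERPINB2 a match on the gene's own strand began 30 bases before the start. Position and strand were not part of the search, so the count does not show that these genes have a working TATA box.

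Other windows were rich in CG steps. SERPINB6 and SERPINH1, which were expressed in all 3 libraries, are shown with each CG in capitals, at chr6:2971290-2971409 (minus strand, the second of 4 starts) and chr11:75562353-75562472 (plus strand, the second of 2 starts).
SERPINB6: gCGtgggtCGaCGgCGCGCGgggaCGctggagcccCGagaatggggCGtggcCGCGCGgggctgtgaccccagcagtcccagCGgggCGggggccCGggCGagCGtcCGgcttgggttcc
SERPINH1: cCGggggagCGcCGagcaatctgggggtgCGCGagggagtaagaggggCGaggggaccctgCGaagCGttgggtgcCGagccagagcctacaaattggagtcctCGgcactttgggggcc

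The 120 bases held 18 CG steps in SERPINB6 and 10 in SERPINH1. Over the whole 250 bases, the starts of the chromosome 6 array, SERPINB1, SERPINB6 and SERPINB9, had a median of 26.5 CG steps, with 3 at the lowest start and 34 at the highest. The starts of plasma serpins had a median of 3 and those of the chromosome 18 array of 2, against 11 over all 35116 starts of the table.

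**Figure D1:**
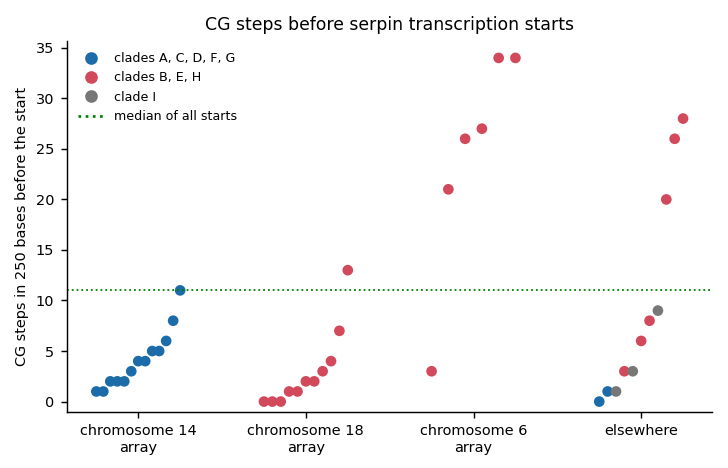
Number of CG steps in the 250 bases before each RefSeq start of a serpin gene (y axis), by the array the gene lies in (x axis), with 1 point per start colored by clade group and a dotted line at the median of all starts, 11. Points of the chromosome 14 array reach at most 11 and those of the chromosome 18 array at most 13, while 5 of the 6 starts of the chromosome 6 array lie at 21 or more. Of those 6 starts, 4 are of SERPINB6.

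The plasma serpins lost nearly all of their mRNA in HepG2/metR cells. Their 16 genes summed to 3351 FPKM in parental cells, 13.1 in HepG2/metR cells and 8.82 with oxamate. SERPINA1 alone gave 1709 FPKM of the parental sum. Without it the plasma serpins still went from 1642 to 1.95 FPKM. The 16 genes described of clades B, E and H summed to 212 FPKM in parental cells, 210.3 in HepG2/metR cells and 260.5 with oxamate. Over all 34 genes the sums were 3580.4, 224 and 269.7 FPKM, of which plasma serpins made up 93.6% in parental and 5.87% in HepG2/metR cells. A sum over the 34 genes is not that of the whole family.

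**Figure D2:**
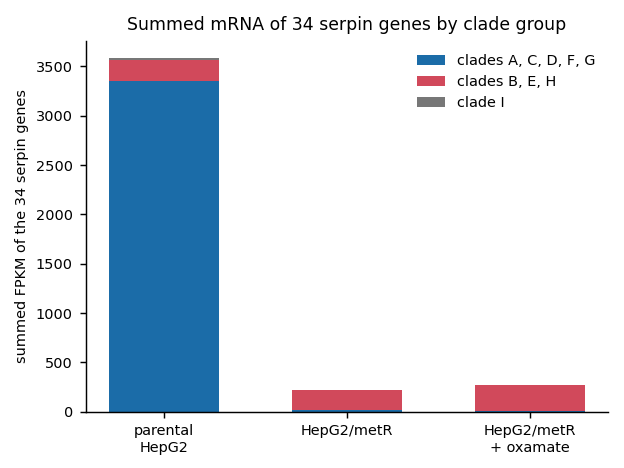
Summed FPKM of the 34 serpin genes described (y axis) in each of the 3 libraries (x axis), stacked by clade group, with 1 library per bar and no error. The parental bar reaches 3580.4 FPKM and is mostly plasma clades, and the HepG2/metR and oxamate bars reach 224 and 269.7 FPKM and are mostly clades B, E and H.

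Of the 34 genes, 22 reached 1 FPKM in at least 1 library, 13 of them plasma serpins, 8 of clades B, E and H, and SERPINI1. The same 22 had a mean of at least 1 FPKM over the libraries, the filter used for counts. The other 12 stayed under 1 FPKM in every library, and 8 of these were listed at 0 in all 3. They were SERPINA2, SERPINA9, SERPINA12, SERPINB3, SERPINB4, SERPINB5, SERPINB10, SERPINB11, SERPINB12, SERPINB13, SERPINE3 and SERPINI2. The highest value among them was 0.987 FPKM, for SERPINA9 in HepG2/metR cells.

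**Figure D3:**
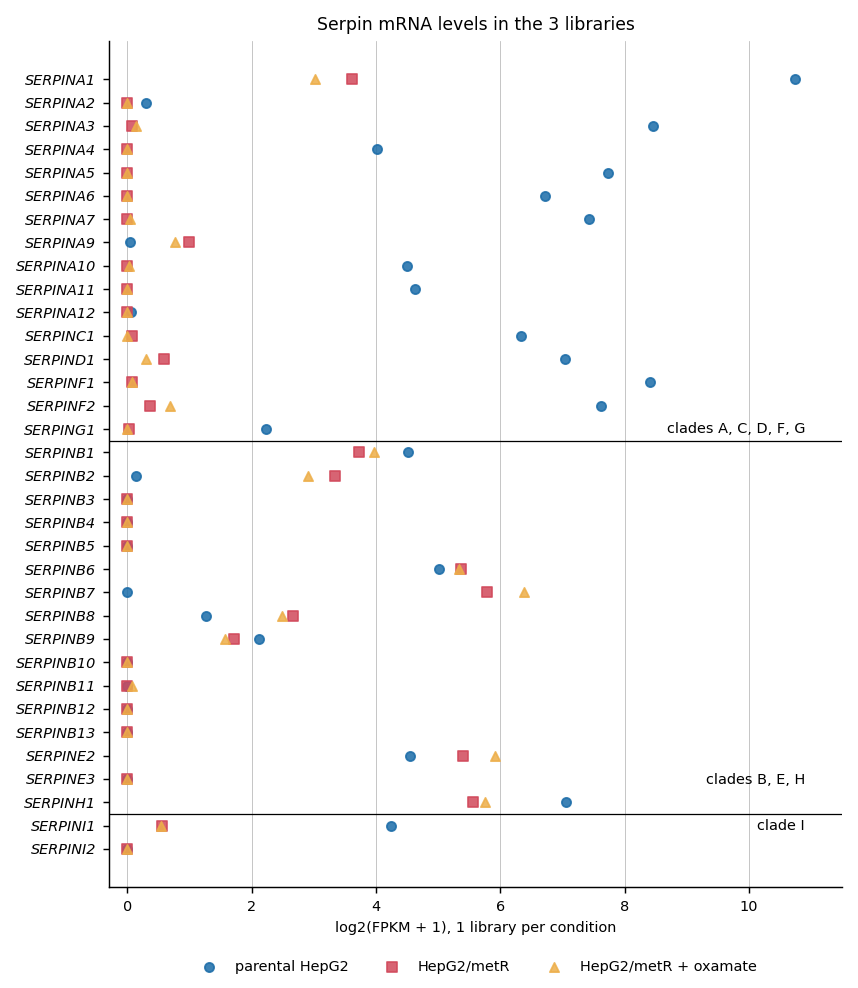
Level of each of the 34 serpin genes (rows) in the 3 libraries, as log2(FPKM + 1) on the x axis, with 1 marker per library and the clade groups divided by lines. The parental markers of 13 genes in the upper block lie far to the right of both HepG2/metR markers, and in the middle block the markers of the 2 HepG2/metR libraries lie close together.

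HepG2/metR cells were compared with parental cells to see what came with the metformin-selected state. All 13 plasma serpins at 1 FPKM or more in parental cells fell by 10-fold or more in HepG2/metR cells, by the ratio of their FPKM, whereas 9.48% of all genes at that level in parental cells did. At the 2-fold threshold the count was 13 of 13, beside 21.4% of all such genes. Their median went from 131 FPKM in parental to 0.0211 in HepG2/metR cells, where 6 were listed at 0 and 12 were under 1 FPKM. Over the genes with a mean of at least 1 FPKM, the same 13 plasma serpins were lower and 0 were higher, with a median change of -6.72, while 17.6% of the 12210 genes kept were lower and 16.6% higher and their median change was 0.02. Of the 13, 12 passed that filter through the parental library alone, as did 6.46% of all genes kept. Such a gene has to differ. Choosing genes by their parental level does not force a difference but still leans toward falls. Over all genes so chosen, 21.4% were lower and 8.54% higher.

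Among the inhibitors of white blood cell proteases, SERPINA1, which encodes alpha-1-antitrypsin, was the highest member. It was listed at 1709 FPKM in the parental library, 11.2 in the HepG2/metR library and 7.10 with oxamate, and it ranked 43rd among all genes of the parental library. It was 153-fold lower in HepG2/metR cells and was the only plasma serpin above 1 FPKM there. SERPINA2, its neighbor, is a related pseudogene in RefSeq, and reads shared between them cannot be told apart. SERPINA2 was at 0.231 FPKM in parental cells and at 0 in both other libraries. SERPINA3, which encodes alpha-1-antichymotrypsin, an inhibitor of cathepsin G, went from 348 FPKM in parental to 0.0492 in the HepG2/metR library and 0.0965 with oxamate. Its change of -8.38 was the largest in size among the 34 genes.

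The anticoagulant serpins were lower in the same way. SERPINC1 encodes antithrombin, the main inhibitor of thrombin and factor Xa in plasma, and was listed at 79.3 FPKM in the parental library, 0.0489 in the HepG2/metR library and 0 with oxamate. SERPIND1, which encodes heparin cofactor II, a second thrombin inhibitor, was at 131, 0.504 and 0.230 FPKM. SERPINA5, which encodes the protein C inhibitor, was at 212 FPKM in parental cells and at 0 in both HepG2/metR libraries. SERPINA10, whose product inhibits factor Xa together with protein Z, was at 21.6 FPKM in parental cells and 0 in the HepG2/metR library and at 0.0173 with oxamate. In each of these genes the parental value stood alone and both HepG2/metR values were under 1 FPKM.

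The serpins of fibrinolysis, kinins and complement followed. SERPINF2 encodes alpha-2-antiplasmin, the inhibitor of plasmin, and was listed at 195 FPKM in the parental library, 0.288 in the HepG2/metR library and 0.598 with oxamate. SERPINF1, its neighbor on chromosome 17, encodes the non-inhibitory protein PEDF and was at 337, 0.0514 and 0.0504 FPKM. SERPINA4, which encodes the kallikrein inhibitor kallistatin, was at 15.2 FPKM in parental cells and 0 in the others. SERPING1 encodes the inhibitor of the first complement component and of plasma kallikrein. It was the lowest of the 13 in parental cells, at 3.71 FPKM, and was at 0.0211 in HepG2/metR cells and 0 with oxamate.

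Both hormone carriers were listed at 0 in HepG2/metR cells. SERPINA6 encodes the corticosteroid-binding globulin and was at 105 FPKM in parental cells and 0 in both other libraries. SERPINA7 encodes the thyroxine-binding globulin and was at 171 FPKM in parental cells, 0 in HepG2/metR cells and 0.0240 with oxamate. SERPINA11 was at 23.6 FPKM in parental cells and 0 in the others. Angiotensinogen is also a clade A serpin, but its symbol AGT falls outside the naming rule. AGT was listed at 485 FPKM in the parental library, 0.0142 in the HepG2/metR library and 0 with oxamate.

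SERPINA9, known from germinal center B cells, was the exception among the plasma clades. It was listed at 0.0285 FPKM in the parental library, 0.987 in the HepG2/metR library and 0.698 with oxamate. Its change of 0.95 stayed below the 2-fold threshold and its levels below 1 FPKM.

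The 8 expressed genes described of clades B, E and H did not share a direction. Of these 8, 3 rose 2-fold or more, namely SERPINB2, SERPINB7 and SERPINB8. SERPINH1 was at least 2-fold lower, and the other 4 stayed within 2-fold. The shares over all genes kept were 16.6% higher and 17.6% lower. The median change of the 8 genes was 0.60, and 0 of them fell below 1 FPKM in HepG2/metR cells. Among the 6 of them at 1 FPKM or more in parental cells, a choice made after seeing the data, the median was -0.021, 1 gene, SERPINB8, was higher and 1, SERPINH1, was lower, beside 8.54% and 21.4% of all genes at that level. Among genes at 1 FPKM or more in HepG2/metR cells, 3 of the 9 serpins had risen 2-fold, beside 18.4% of all genes at that level.

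**Figure D4:**
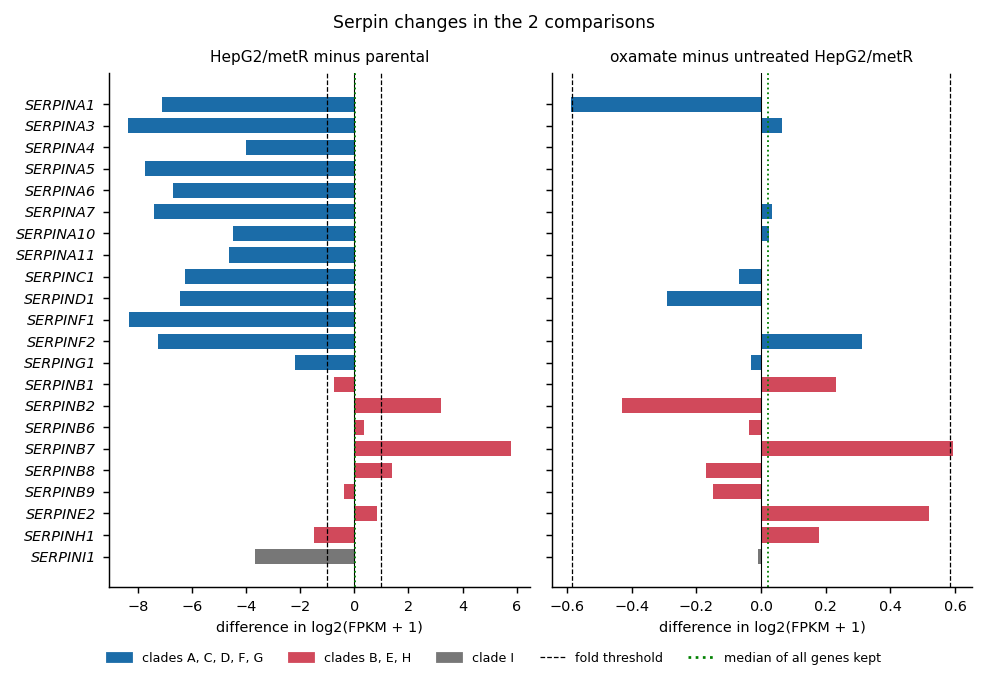
Difference in log2(FPKM + 1) for the 22 serpins with a mean of at least 1 FPKM, in HepG2/metR against parental cells (left) and in oxamate-treated against untreated HepG2/metR cells (right). The x axes differ in scale, bars are colored by clade group, dashed lines mark the 2-fold (left) and 1.5-fold (right) thresholds, and the dotted line is the median of all genes kept. On the left all 13 plasma serpins lie below the lower threshold, and on the right SERPINA1 and SERPINB7 just pass theirs.

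SERPINE2 of clade E encodes protease nexin-1, a secreted inhibitor of thrombin and urokinase, and was at 22.4 FPKM in the parental library, 41.0 in the HepG2/metR library and 59.2 with oxamate. Its change of 0.84 between the first 2 libraries stayed within 2-fold.

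Among the genes described, clade B held the largest rise. SERPINB7, which encodes megsin, was listed at 0 in parental cells, at 53.8 FPKM in HepG2/metR cells and at 81.7 with oxamate. SERPINB2, which encodes PAI-2, was at 0.0965 FPKM in the parental library, 9.11 in the HepG2/metR library and 6.50 with oxamate. SERPINB8, whose product can inhibit furin, was at 1.39, 5.33 and 4.63 FPKM. All 3 were lowest in parental cells. SERPINB7 and SERPINB2 passed the filter on low values through the HepG2/metR libraries alone, as did 10.3% of all genes kept, so they too had to differ.

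The other expressed clade B genes stayed within 2-fold. SERPINB6, which encodes an inhibitor of cathepsin G, was listed at 31.2 FPKM in the parental library, 40.2 in the HepG2/metR library and 39.2 with oxamate. SERPINB1, the inhibitor of neutrophil elastase in white blood cells, was at 21.7, 12.3 and 14.6 FPKM. SERPINB9, the inhibitor of granzyme B, was at 3.32, 2.28 and 1.96 FPKM. With 1 library per condition, the orders of these values cannot be separated from the error between libraries.

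SERPINH1, which encodes the collagen chaperone HSP47, was the 1 gene of clades B, E and H that was at least 2-fold lower. It was listed at 132 FPKM in the parental library, 46.3 in the HepG2/metR library and 52.6 with oxamate, a 2.84-fold lower level in HepG2/metR cells. SERPINI1 of clade I encodes neuroserpin, an inhibitor of the tissue plasminogen activator. It went from 17.8 FPKM in parental to 0.463 in the HepG2/metR library and 0.452 with oxamate.

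Oxamate was given to HepG2/metR cells to lower lactate. Of the 22 serpins kept, 13 were under 1 FPKM with and without it, where this scale can show little change. At the 1.5-fold threshold 1 of the 22 was lower, SERPINA1, and 1 was higher, SERPINB7, beside 3.82% and 4.3% of all genes kept. Among the 9 serpins at 1 FPKM or more in untreated HepG2/metR cells the counts were the same, beside 4.18% lower and 4.1% higher of all genes at that level. SERPINA1 went from 11.2 to 7.10 FPKM, a change of -0.59, and SERPINB7 from 53.8 to 81.7 FPKM, also 0.59 in size. A fold of 1.5 is 0.58 on this scale, so both passed it narrowly. SERPINB7 no longer passed under median-of-ratios scaling, at 0.57, nor did SERPINA1 when each library was scaled to the same total, at -0.43.

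Below the threshold, SERPINE2 changed by 0.52 and SERPINB2 by -0.43, beside a median size of change of 0.21 over all genes kept. The change of SERPINH1 was 0.18 and of SERPINB6 -0.04. The 12 plasma serpins under 1 FPKM in HepG2/metR cells were also under 1 FPKM with oxamate, and the highest among them was SERPINF2 at 0.598 FPKM. No plasma serpin returned to a parental level. Both comparisons use the untreated HepG2/metR library, so an error in it enters both, and the opposite signs of SERPINB2 in them are given side by side only.

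Serpin genes are known to lie in arrays made by gene duplication, and gene order was read from the RefSeq gene table, in which all 34 members were found. Of these, 27 lay in 5 arrays of 2 or more members with at most 2 other genes between them. The arrays on chromosomes 14, 18 and 6 behaved differently from each other.

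The chromosome 14 array runs from SERPINA10 to SERPINA3 and holds 10 clade A members. In parental cells 7 of the 10 were at 1 FPKM or more, from 15.2 FPKM for SERPINA4 to 1709 for SERPINA1. In HepG2/metR cells SERPINA1 was the 1 member above 1 FPKM, and 7 members were listed at 0. SERPINA9 stands within the array, between SERPINA11 and SERPINA12, and had its higher values in the HepG2/metR libraries. Of the 3 genes on each side, 2 were at least 2-fold lower and 1 was at least 2-fold higher, beside 9.60% and 8.31% of all genes with no filter on low values. PPP4R4, next to SERPINA10, was at 5.06 FPKM in parental cells and 1.48 in the HepG2/metR library, IFI27L2 at 5.01 and 105 FPKM, and IFI27 at 1.84 and 0.328 FPKM. The 7 serpins of the array at 1 FPKM or more in parental cells changed by -4.02 or further down, and the lowest change among the 6 neighbors was -1.29. The highest of these neighbors in parental cells was DICER1, at 10.8 FPKM. On this scale none of the 6 could have fallen by as much as the serpins, so the sizes are not compared. Of the other 3 serpins, SERPINA2 and SERPINA12 changed by -0.30 and -0.06 from levels under 1 FPKM, and SERPINA9 by 0.95.

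The chromosome 18 array runs from SERPINB5 to SERPINB8 and holds 10 clade B members. In parental cells 8 of the 10 were listed at 0. In HepG2/metR cells SERPINB7, SERPINB2 and SERPINB8, which lie toward one end, were at 1 FPKM or more, and the other 7 were at 0. HMSD, a serpin-related gene between SERPINB10 and SERPINB8, went from 0 in parental to 5.58 FPKM in untreated HepG2/metR cells and 4.45 with oxamate. SERPINB10, between SERPINB2 and HMSD, was at 0 in every library. SERPINB3 and SERPINB4 are nearly identical genes whose reads are hard to assign, and both were at 0 in all 3 libraries. Of the 6 flanking genes 3 were at least 2-fold higher, BCL2, KDSR and DSEL. The share was 16.6% over the genes kept and 8.31% over all genes with no filter on low values. BCL2 and DSEL were under 1 FPKM in parental cells, at 0.224 and 0.0538, and KDSR passed narrowly, at 1.02.

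The chromosome 6 array holds SERPINB1, SERPINB9 and SERPINB6. All 3 were at 1 FPKM or more in every library, and their changes in HepG2/metR cells lay between -0.77 and 0.36. On chromosome 17, SERPINF2 and SERPINF1 lie side by side and changed by -7.25 and -8.33, whereas their 6 flanking genes changed by between -0.65 and 0.84. The highest of these flanking genes in parental cells, PRPF8 at 54.5 FPKM, could not have fallen as far as the 2 serpins on this scale.

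The proteases and partners of the serpins were described from lists of general knowledge. Of 15 proteases that plasma serpins inhibit, 8 had a mean of at least 1 FPKM, all 8 fell by 2-fold or more from parental to HepG2/metR cells, and their median change was -3.75. Over all genes kept 17.6% were lower. Of the 8 proteases, 7 passed the filter through the parental library alone and so had to be lower, and nothing is read from their count. F2, which encodes prothrombin, the target of antithrombin, was listed at 247 FPKM in the parental library, 0.0940 in the HepG2/metR library and 0.0737 with oxamate. F10, the gene of factor X, was at 36.3, 1.18 and 1.41 FPKM, and PROC, the gene of protein C, at 48.8, 0 and 0.0212 FPKM. Of the 15, 10 were at 1 FPKM or more in parental cells. ELANE, PRTN3 and CTSG, which encode the white blood cell proteases that SERPINA1 and SERPINA3 inhibit, were listed at 0 in all 3 libraries.

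In the plasminogen activator system 5 of the 8 genes kept rose by 2-fold or more and 3 fell, beside 16.6% and 17.6% of all genes kept, with a median change of 2.59. Of the 8, 2 passed the filter through the parental library alone and 1 was under 1 FPKM there. PLAU, which encodes urokinase, the target of PAI-2, was listed at 4.35 FPKM in the parental library, 107 in the HepG2/metR library and 44.4 with oxamate. ANXA2, whose product helps to gather plasminogen at the cell surface, was at 66.1, 2268 and 1806 FPKM. VTN, which encodes vitronectin, a cell-adhesion protein of plasma, was at 83.7, 0.324 and 0.544 FPKM, and CPB2, an inhibitor of fibrinolysis, at 50.4, 0.0235 and 0 FPKM. With oxamate PLAU was the 1 gene of the 8 past 1.5-fold, with a change of -1.26, beside 3.82% lower and 4.3% higher of all genes kept.

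Of 14 proteases met by intracellular serpins that were found in the files, 7 were kept. CTSH, a cathepsin, was at 126 FPKM in parental cells and 0.480 in the HepG2/metR library and was the 1 gene of the 7 past 2-fold. Over all genes kept 17.6% were lower and 16.6% higher. CTSH passed the filter through the parental library alone and so had to be lower. The median change of the 7 genes was -0.18. Of the 15 collagens and collagen-folding genes kept, which are partners of HSP47, 5 were at least 2-fold higher and 3 lower, beside 16.6% and 17.6% of all genes kept, with a median of -0.17. COL4A2, COL4A1 and COL5A2, which encode collagen chains, were listed at 0.155, 0.0386 and 0.327 FPKM in parental cells and reached 104, 52.7 and 64.3 FPKM in that order in HepG2/metR cells. These collagens were under 1 FPKM in parental cells, passed the filter through the HepG2/metR libraries alone and so had to differ. The 3 lower genes, named after their values were seen, encode collagen-modifying or folding enzymes. PLOD1 changed by -1.44, PLOD3 by -1.35 and FKBP10 by -1.07, beside -1.49 for SERPINH1. Another collagen-folding gene, CRTAP, went the other way, at 1.21. The remaining such genes kept lay within 2-fold, from -0.96 for P4HB to 0.92 for PLOD2, so these genes did not share a direction.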

How the data were processed

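The authors extracted total RNA with Trizol, prepared libraries by a standard Illumina protocol and sequenced them on an Illumina NextSeq instrument, with 1 library per condition. The submitters' processing notes name STAR 2.5.1b, Cufflinks 2.2.1, FastQC 0.11.5 and the build hg19, with no role or order. The annotation and filters are not given in the sources used here. The authors deposited 1 log2 value per gene symbol and library. The unit log2(FPKM + 1) was read from the values, since 100% of those above 1 gave an FPKM of at most 6 significant digits. Strandedness is not given, so overlapping genes cannot be told apart.

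Changes were differences of the deposited values, without further scaling. Genes with a mean of at least 1 FPKM were kept (12210), and the thresholds of 2-fold and 1.5-fold follow the paper's methods. No test was possible without replicates. The members and lists were chosen with earlier results of these data known. Of the genes the naming rule and the marker lists name, 2 are not reported here and are in no count, sum or plot of members or lists. Members at 1 FPKM or more in any library are named, and for related lists the 3 largest changes past the threshold at a mean of at least 10 FPKM. Gene order and promoter windows came from RefSeq (GRCh38.p14) by symbol, so only those windows carry coordinates. The first bases of 35 of 41 windows lay in a sense transcript of GENCODE release 29, and 0 only in the opposite sense. The calculation was run on simulated data with known rises in expressed genes and little added noise. That run checks the arithmetic only and does not cover falls, low values or the error between libraries. The software was Python 3.11, numpy 2.4.6, pandas 2.3.3 and matplotlib 3.10.9. Results were recomputed with another pseudocount, filters, scalings, fold thresholds and clade grouping.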

Additional observations from a re-analysis of the deposited data

How the results depend on the processing

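All 13 plasma serpins kept were lower and 0 higher in HepG2/metR cells under every alternative run, except that the lower genes were 12 of 12 where a mean of at least 5 FPKM was required, 13 of 14 where SERPINE2 joined them and 13 of 16 with no filter on low values. Their median became -8.97 with a pseudocount of 0.1. For clades B, E and H, the median became 0 with no filter on low values, where unexpressed genes enter. With a parental level of at least 1 FPKM required, an alternative chosen after seeing the data that drops SERPINB2 and SERPINB7, the median became -0.021 and the count of higher genes 1. At 1.5-fold the count of lower genes became 2 and that of higher genes 4.

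With oxamate the counts were small and moved easily. Of the plasma serpins 2 were lower and 1 higher with a pseudocount of 0.1, namely SERPIND1 (-0.87) and SERPINF2 (0.85) beside SERPINA1, both under 1 FPKM in both libraries. With that pseudocount 4.97% of all genes kept were lower and 8.34% higher. No plasma serpin (0) was lower at 2-fold or when all libraries were set to an equal total. SERPINA1, the 1 plasma serpin at 1 FPKM or more in untreated HepG2/metR cells, gave a median of -0.59 on its own. The count of higher genes of clades B, E and H became 0 at 2-fold and under median-of-ratios or upper-quartile scaling (SERPINB7 at 0.57 and 0.58), and 2 when totals were made equal (SERPINE2 at 0.69). That scaling moved the median of all genes with oxamate from 0.02 to 0.17. Under it 9.70% of all genes kept were higher and 1.57% lower. No paired analysis was possible because each condition has 1 library. The depth in reads is unknown, so values well under 1 FPKM carry no interval.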

Other observations

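Protease inhibitors of other families were described beside the serpins. Of 28 such genes, 17 were kept, 10 fell by 2-fold or more from parental to HepG2/metR cells and 2 rose as much, beside 17.6% and 16.6% of all genes kept, with a median change of -2.21. Of the 17, 8 passed the filter through the parental library alone and so had to be lower, and 2 were under 1 FPKM in parental cells. A2M, which encodes the broad plasma inhibitor alpha-2-macroglobulin, was listed at 942 FPKM in the parental library, 0.0227 in the HepG2/metR library and 0.118 with oxamate. AMBP, the precursor of the light chain of the inter-alpha inhibitors, was at 1005, 0 and 0.0546 FPKM, and AHSG, which encodes fetuin-A, at 2118, 0.299 and 0.171 FPKM. AMBP and AHSG are also in the list of hepatocyte markers. With oxamate 0 of the 17 passed 1.5-fold in either direction, beside 3.82% lower and 4.3% higher of all genes kept.

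Markers of other cell types were low in most cases. Of 6 endothelial markers 0 were kept, and of 6 keratinocyte markers 1 was, with a change of 0.05 in HepG2/metR cells. Of 7 blood cell markers 3 were kept, and LYZ, the gene of lysozyme, was at 3415 FPKM in the parental library, 0 in the HepG2/metR library and 0.230 with oxamate. Of 9 fibroblast markers 3 were kept and 2 rose by 2-fold or more, both under 1 FPKM in parental cells, among them THY1 at 0.0374 FPKM in the parental library, 53.3 in the HepG2/metR library and 48.5 with oxamate, while COL1A2 and COL3A1 stayed under 1 FPKM in all 3 libraries. A rise of 2-fold or more was seen in 16.6% of all genes kept. With oxamate 2 of the 3 fibroblast markers kept were at least 1.5-fold higher, beside 4.3% of all genes kept.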
